A study of Mus musculus with 4 samples.

Results

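The translocases of the outer and inner mitochondrial membrane carry proteins made in the cytosol into the mitochondrion. Of 10 such genes sought on the array, namely Tomm20, Tomm22, Tomm40, Tomm70a, Timm8b, Timm10, Timm13, Timm17a, Timm23 and Timm44, 9 names led to a spotted cDNA clone. These 9 names covered 14 of the 16835 clones measured. Clones were taken by the symbol or gene ID in the deposited table (12 clones), and the 2 clones of Tomm70a through older symbols that RefSeq lists for that gene. The group was selected on a measured value of these same arrays, the difference of a Tomm20 clone that lay higher with HuR siRNA, so the Tomm20 differences are described here without a test.

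The RNA came from C2C12 cells, an established line of mouse myoblasts, kept proliferating in serum-rich medium and transfected with HuR siRNA (2 arrays) or control siRNA (2 arrays). HuR is an RNA-binding protein encoded by Elavl1 that binds AU-rich stretches of mRNAs. Both groups were thus transfected cells of the same line, and the labels mention no untransfected cells, nor whether replicate arrays stem from different cultures. All values are the authors' z-scores, in which 1 unit is 1 SD of the spots in an array section, so no fold change can be computed and p-values measure the spread between these arrays.

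Nearly all mitochondrial proteins are encoded in the nucleus and enter through the TOM complex of the outer membrane, where Tomm20, Tomm22 and Tomm70a act as receptors and Tomm40 forms the channel. Precursors with a presequence pass on to the TIM23 complex of the inner membrane, built around Timm23 and Timm17 proteins, with Timm44 tethering the matrix motor. Small TIM proteins such as Timm8b, Timm9, Timm10 and Timm13 chaperone hydrophobic precursors across the space between the membranes. Muscle cells rely on this pathway when they build up mitochondria during differentiation.

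The targeted gene Elavl1 was not measurably lower with HuR siRNA: its 2 clones differed by -0.045 (SE 0.048) and 0.03 (SE 0.058), both with a limma adjusted p = 0.99, so every direction below rests on the array labels. The file name of the table points to NPM and not to HuR. The 2 clones of Npm1, which encodes nucleophosmin, lay higher with HuR siRNA by 0.33 (SE 0.079) and 0.205 (SE 0.057). Neither Npm1 clone passed the test (limma adjusted p = 0.99 each). In each, both HuR siRNA arrays lay above both control arrays, as in 13.9% of all clones. Of 12 genes listed for myoblasts 4 had a matched clone (Id1, Id2, Id3 and Msc). None was matched for the defining markers Myod1, Myf5 and Des, so the 4 genes do not speak to myoblast identity. All 5 clones of those 4 genes lay lower on both HuR siRNA arrays than on both control arrays, by 0.02 to 0.16, where 13.7% of all clones did. Of 7 fibroblast and mesenchymal genes 6 were measured, with mean z-scores of -0.715 to 2.07 and 5 of 10 clones lower. Of 11 genes listed for differentiated muscle only 2 were matched, Mylpf (higher by 0.125) and Tnnt1 (higher by 0.045). The groups overlapped for Tnnt1 and parted for Mylpf, and 2 genes do not speak to differentiation. Of 8 blood, macrophage and endothelial genes 3 were matched, and their 3 clones lay lower by 0.06 to 0.285. No adipocyte marker was matched. No clone of these marker lists passed the test (limma adjusted p = 0.99 each). The part of these shifts in the values below was not tested.

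Several of the import genes are listed under names that have since moved, which decides what each spot measures. The clone listed as Timm10 carries the gene ID 30056, which RefSeq now gives to Timm9, and is called Timm9 here. The 2 clones listed as Timm9 carry the gene ID 30055, now Timm13, and their descriptions also name Tim13. No clone carried the current ID of Timm10 (30059). One of the 2 Timm8b clones has identifiers that disagree, since one part of the table gives Timm8b and another gives the gene now called Naa35. The 2 Tomm70a clones carry the gene IDs 28107 (BG088889) and 70049 (BG064591), and neither is the current ID of Tomm70a (28185). Their identity as Tomm70a rests on the older symbols alone. Tomm22 had no clone by symbol or ID.

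Tomm20, the receptor that recognises presequences, was represented by 3 clones that did not move alike. The clone of highest signal (BG079357) had z-scores of 0.49 and 0.49 with HuR siRNA, against 0.27 and 0.31 with control siRNA. Both HuR siRNA arrays therefore lay above both control arrays, with means of 0.49 ± 0 and 0.29 ± 0.028 (SD, n = 2 each) and a difference of 0.2.

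The second Tomm20 clone (BG088359) had -0.2 and -0.25 with HuR siRNA, against -0.28 and -0.34 with control siRNA. Its groups did not overlap either, and its difference was 0.085. The third clone (BG086772) had -0.25 and -0.19 with HuR siRNA, against -0.26 and -0.14 with control siRNA. Here the groups overlapped and the difference was -0.02. Averaged over the 3 clones, Tomm20 stood at 0.0133 and 0.0167 with HuR siRNA, against -0.09 and -0.0567 with control siRNA, a difference of 0.0883. The first clone lies in the first array section and the other two in the second, and the clones differed in mean level by up to 0.658 z units. All 3 carry the gene ID of Tomm20 (67952), but the description of the first names a human TOM20 pseudogene and those of the other two the human KIAA0016 mRNA.

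**Figure D1:**
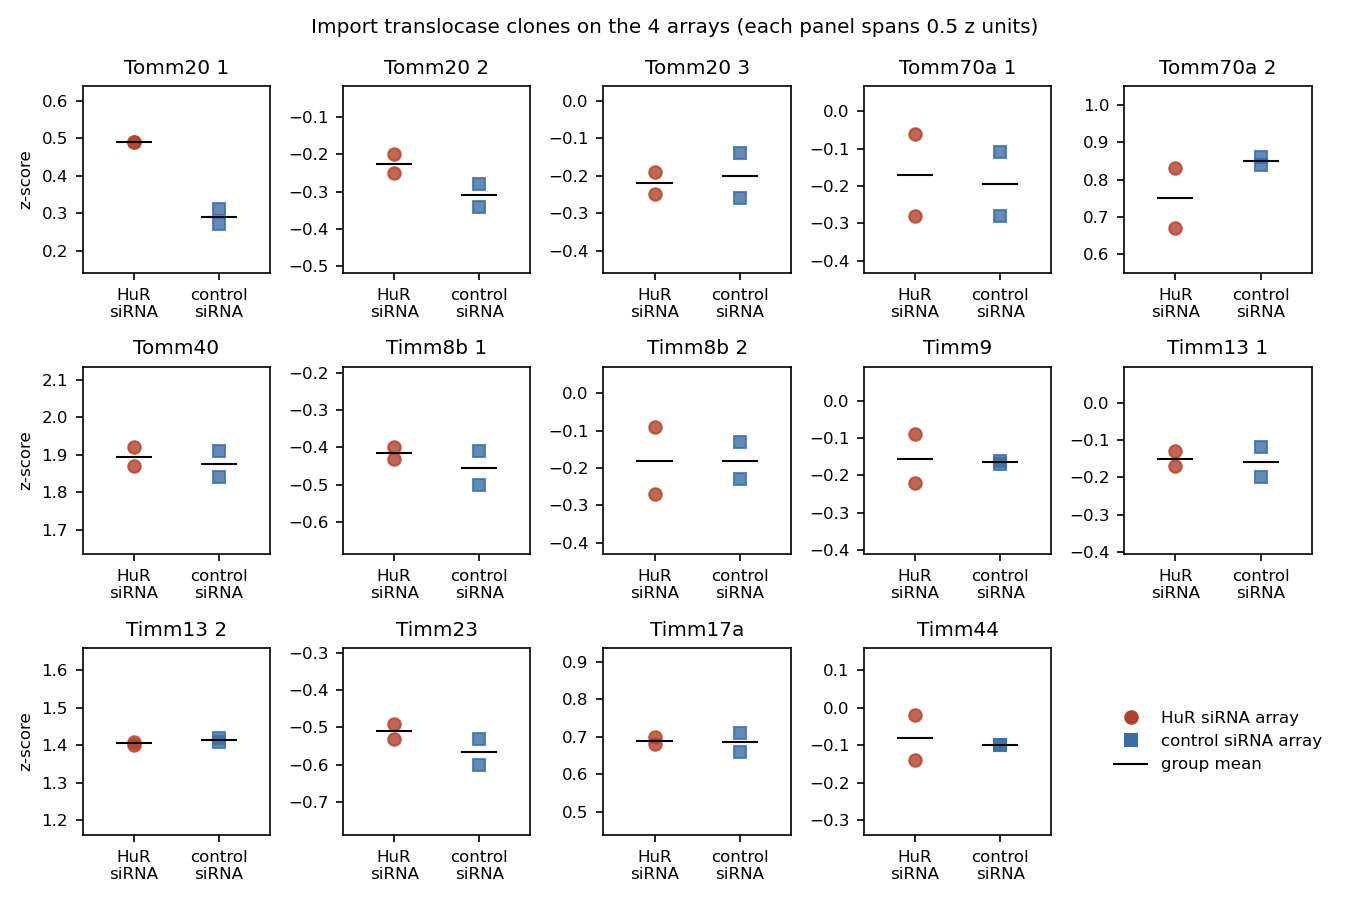
Z-scores (vertical axis, z units) of the 14 import translocase clones on the 2 HuR siRNA arrays (red circles) and the 2 control siRNA arrays (blue squares), with group means as black lines; clones of 1 gene are numbered in the order of their differences, and Timm8b 1 is the clone whose identifiers disagree. The groups part without overlap in Tomm20 1 (0.49 and 0.49 against 0.27 and 0.31), Tomm20 2 and Tomm70a 2, and overlap in the other 11 panels.

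The promoter window of Tomm20 (RefSeq, GRCm38.p6, 250 bases before to 50 after the gene start) is shown beside that of Timm8b, because these are the only promoters of the group, of 11 examined (the 10 genes and Timm9), that hold the NRF-1 motif (GCGCA, any base, then GCGC) on either strand. NRF-1 is a transcription factor known for its sites in nuclear genes of mitochondrial proteins. Capitals mark this motif and the motif CCGGAAG, bound by ETS factors such as GABP, also on either strand.
Tomm20, chr8:126945872-126946171, minus strand: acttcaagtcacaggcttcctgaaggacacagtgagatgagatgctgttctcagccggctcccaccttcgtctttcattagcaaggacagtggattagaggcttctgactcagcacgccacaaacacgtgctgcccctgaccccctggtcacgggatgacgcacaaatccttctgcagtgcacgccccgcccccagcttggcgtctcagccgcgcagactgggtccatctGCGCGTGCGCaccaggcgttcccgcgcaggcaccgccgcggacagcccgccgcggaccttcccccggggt
Timm8b, chr9:50603651-50603950, plus strand: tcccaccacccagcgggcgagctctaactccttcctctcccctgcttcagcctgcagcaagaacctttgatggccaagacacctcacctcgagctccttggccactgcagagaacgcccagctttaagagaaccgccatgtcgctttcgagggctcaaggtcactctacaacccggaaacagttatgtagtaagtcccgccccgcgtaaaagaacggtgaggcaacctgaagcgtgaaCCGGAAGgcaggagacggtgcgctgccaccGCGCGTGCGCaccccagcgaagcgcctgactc
The NRF-1 motif was present in 2 of the 11 promoters and in 4.6% of the 32851 promoters of the same length. CCGGAAG was present in 5 of the 11, those of Timm8b, Timm10, Timm23, Tomm22 and Tomm70a, and in 8.86% of all. The letters TATAAA of the TATA box, sought on either strand, were found in 1 of the 11, that of Timm13, and in 13.6% of all. In Timm13 the match was the reverse complement TTTATA, near the upstream end of the window and away from the gene start. It was not shown to be a working TATA box. The 11 windows held 15 to 35 CpG sites (median 22), and all promoters a median of 7. Their median GC content was 58.7%, against 52.7% for all promoters, and the shares above are not matched for it. These matches describe the letters of the windows only.

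The other components of the outer membrane translocase gave no difference that passed the test. Tomm70a, the receptor for carrier precursors that arrive with cytosolic chaperones, had 0.67 and 0.83 with HuR siRNA on its clone BG064591, against 0.84 and 0.86 with control siRNA. Both HuR siRNA arrays lay below both control arrays, but the 2 HuR siRNA arrays were themselves 0.16 apart, more than the difference of -0.1 (SE 0.067, 95% interval -0.282 to 0.082, limma adjusted p = 0.99). The median of the 22 spots in its print grid also differed by -0.06.

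The other Tomm70a clone (BG088889) had -0.28 and -0.06 with HuR siRNA, against -0.28 and -0.11 with control siRNA. Its groups overlapped widely, with a difference of 0.025 (SE 0.102, 95% interval -0.25 to 0.3), the largest error of the 14 clones. Tomm40, the pore of the complex, had 1.92 and 1.87 with HuR siRNA, against 1.84 and 1.91 with control siRNA. These 4 values interleaved and gave 0.02 for HuR siRNA minus control siRNA (SE 0.049, limma adjusted p = 0.99, 95% interval -0.112 to 0.152). The Tomm40 spot was brighter than 94.5% of the spots in its section, the highest position of the 14.

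For Tomm22, the central receptor, values can be given only with a doubt about identity. There are 2 clones whose description names human Tom22 but whose gene IDs and symbols give Rnf13, a ring finger protein. One had 0.06 and 0.02 with HuR siRNA, against -0.02 and -0.01 with control siRNA, a difference of 0.055 (SE 0.042). The other had -0.73 and -0.8 with HuR siRNA, against -0.64 and -0.75 with control siRNA, a difference of -0.07 (SE 0.059). They went in opposite directions, did not pass the test (limma adjusted p = 0.99 each) and are not counted among the 14.

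The small TIM chaperones differed by -0.01 to 0.04. The Timm8b clone whose identifiers agree (BG080049) had -0.27 and -0.09 with HuR siRNA, against -0.23 and -0.13 with control siRNA, a difference of 0 (SE 0.08, 95% interval -0.216 to 0.216). The control values lay inside the span of the HuR siRNA values. The Timm8b clone with disagreeing identifiers (BG070892) had -0.4 and -0.43 with HuR siRNA, against -0.41 and -0.5 with control siRNA, and differed by 0.04 (SE 0.051).

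Timm13, the partner of Timm8 proteins, had 1.41 and 1.4 with HuR siRNA on its brighter clone (BG077964), against 1.41 and 1.42 with control siRNA. These 4 values lay within 0.02 of each other, and the difference of -0.01 had the smallest SE of the group (0.04, 95% interval -0.117 to 0.097). Its other clone (BG080141) had -0.17 and -0.13 with HuR siRNA, against -0.12 and -0.2 with control siRNA, a difference of 0.01 (SE 0.05). The clones were 1.565 z units apart in level while their differences lay 0.02 apart. Timm9, which forms a chaperone with Timm10, had -0.22 and -0.09 with HuR siRNA, against -0.17 and -0.16 with control siRNA, a difference of 0.01 (SE 0.059). All 5 small TIM clones overlapped between the groups, with limma adjusted p-values of 0.99 to 1.

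In the presequence translocase of the inner membrane, Timm23, the core channel subunit, had -0.53 and -0.49 with HuR siRNA, against -0.6 and -0.53 with control siRNA. The groups touched at -0.53, and the difference of 0.055 (SE 0.048, 95% interval -0.074 to 0.184) was the largest outside the Tomm genes. The median of its print grid differed by 0.0425 and that of its source plate by 0.03. Timm17a, which pairs with Timm23, had 0.7 and 0.68 with HuR siRNA, against 0.66 and 0.71 with control siRNA, a difference of 0.005 (SE 0.043). Timm44, the anchor of the import motor, had -0.14 and -0.02 with HuR siRNA, against -0.1 and -0.1 with control siRNA, a difference of 0.02 (SE 0.057). None of the 3 passed the test (limma adjusted p = 0.99 each).

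**Figure D2:**
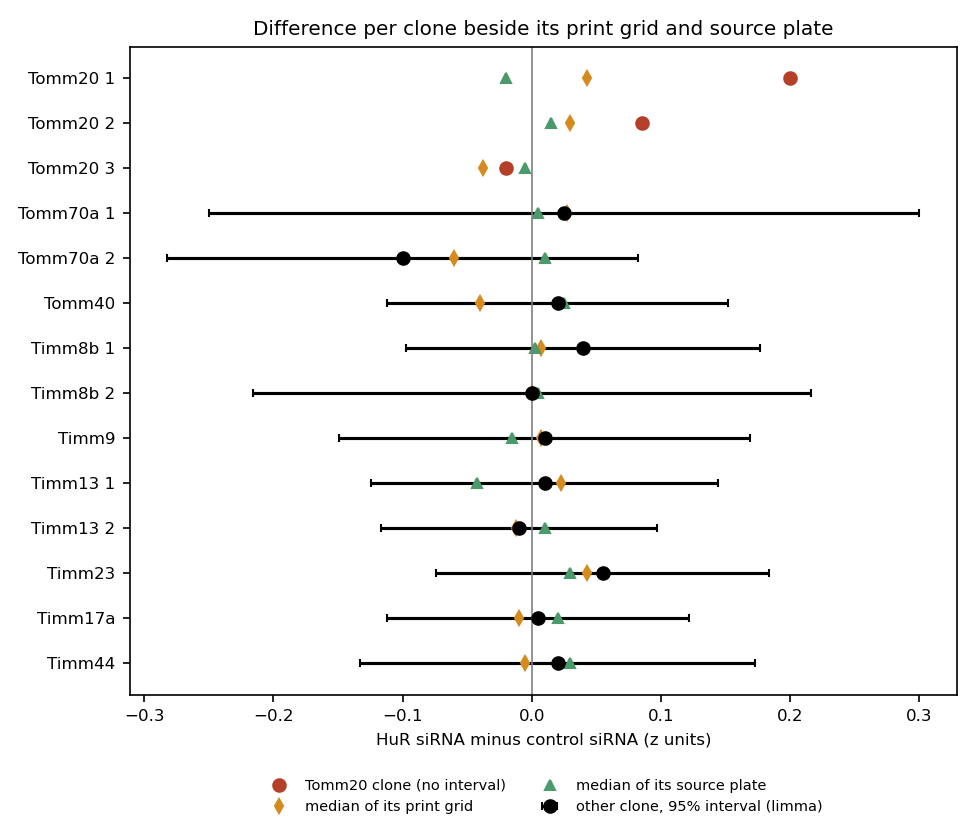
Difference between HuR siRNA and control siRNA (horizontal axis, z units; positive is higher with HuR siRNA) for each of the 14 clones, with limma's unadjusted 95% intervals for the 11 clones of genes other than Tomm20, and beside each clone the median difference of the spots in its print grid (diamonds) and of its 96-well source plate (triangles). All 11 intervals span 0. Tomm20 1, whose difference chose the group, is drawn at 0.2, with its grid at 0.0425 and its plate at -0.02.

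Over the 11 clones of genes other than Tomm20, 0 reached a limma adjusted p under 0.05, as did 0% of all clones. At an unadjusted p under 0.05 there were again 0 of the 11, and 665 (3.95%) of all clones. Of the 11, 8 lay higher, 2 lower and 1 equal, with a median difference of 0.01. For all 16835 clones the median was 0, with 8357 higher and 7901 lower. The 11 differences were at most 0.1 z units in size, a range that held 85.4% of all clones, and their SEs ran from 0.04 to 0.102.

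Arrays parted without overlap in 3 of the 14 clones, 2 Tomm20 clones that were higher and 1 Tomm70a clone that was lower, while 27.6% of all clones parted. The difference exceeded the gap between arrays in both groups for 2 of the 14 clones and for 18.4% of all clones. Both of the 2 belong to Tomm20, the gene that led to the choice of the group. For 5 clones (both of Tomm70a, the Timm8b clone BG080049, Timm9 and Timm44) the 2 HuR siRNA arrays lay over 0.1 z units apart, and HuR siRNA replicate 2 was the higher in each. Of all clones with such a gap, replicate 2 was the higher in 51.5%.

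**Figure D3:**
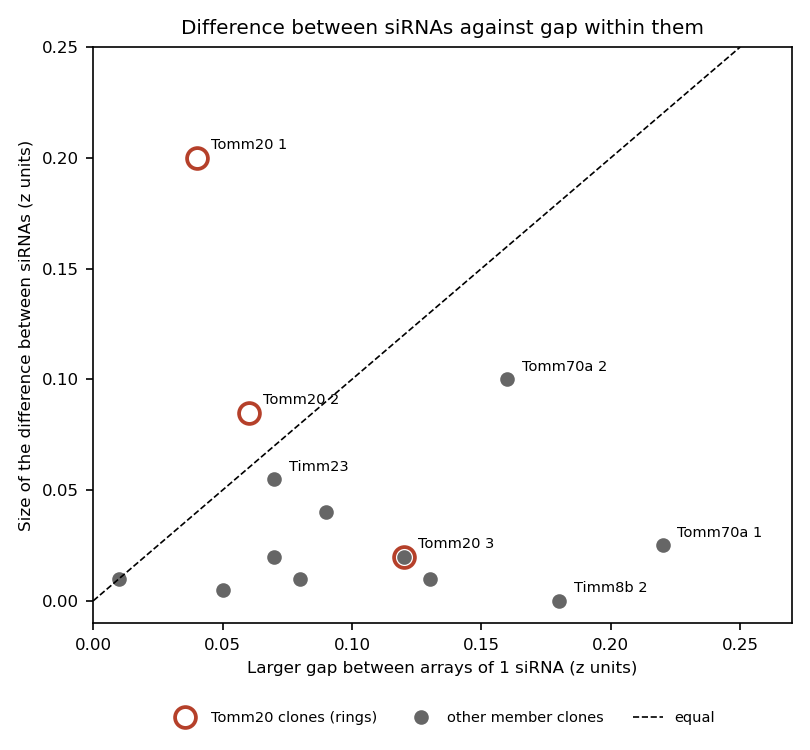
Size of the difference between siRNAs (vertical axis, z units) against the larger of the 2 gaps between arrays of 1 siRNA (horizontal axis, z units) for the 14 clones; rings are Tomm20 clones, filled points the other members, and the dashed line marks equal values. Of the 14, 2 Tomm20 clones lie above the line (0.2 and 0.085), and Tomm20 3 coincides with the Timm44 clone at 0.12 and 0.02.

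Position on the array did not group the members. The 14 clones came from 13 source plates and 14 print grids, 9 clones in the first section and 5 in the second. The median difference of their grids ran from -0.06 to 0.0425 and that of their plates from -0.0425 to 0.03. Once grid medians were removed, the first Tomm20 clone differed by 0.1825, and once source plate medians were removed by 0.2475. Of the other clones that parted, Tomm20 BG088359 was at 0.0375 and Tomm70a BG064591 at -0.0075 with grid medians removed. Their spots stood between the 32.5th and the 94.5th percentile of their sections, and 10 of 14 lay in the upper 50% of clones by mean z-score. Since spots differ in the length and labelling of their cDNA, these positions do not order the transcripts by abundance.

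In the related lists of the import route no clone passed the test either. The list of 34 other import genes includes Timm9, whose clone is already counted among the 14. Apart from that clone, 18 of these genes were measured by 20 clones. Of these clones 9 were higher and 10 lower, with a median of -0.005 and 0 past the test in either direction. Of the 20, 6 lay lower on both HuR siRNA arrays than on both control arrays and 1 higher, against 13.7% and 13.9% of all clones. The clones of smallest unadjusted p were those of Grpel2, an exchange factor of the matrix motor, at -0.08 (SE 0.04), of Tomm34, a cytosolic co-chaperone of import, at -0.1 (SE 0.054), and of Timm17b, the paralog of Timm17a, at -0.06 (SE 0.042). Grpel2 had -0.42 and -0.41 with HuR siRNA, against -0.34 and -0.33 with control siRNA, so its groups did not overlap. Timm22, the channel for carrier proteins, differed by -0.05 (SE 0.04) and Timm8a1, the paralog of Timm8b, by 0.065 (SE 0.085). Hspa9, the matrix motor chaperone, differed by -0.035 (SE 0.041).

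Of 14 genes of matrix chaperones and inner membrane quality control, 11 were measured by 16 clones, 6 higher and 9 lower with a median of -0.005, and 0 passed. Both HuR siRNA arrays lay above both control arrays in 3 of the 16 and below them in 0, against 13.9% and 13.7% of all clones. The smallest unadjusted p-values belonged to both clones of prohibitin (Phb), at 0.07 (SE 0.049) and 0.08 (SE 0.059), and to the protease gene Oma1 at 0.095 (SE 0.077). The 4 clones of Hspd1, the matrix chaperonin that folds imported proteins, differed by -0.065 to 0.

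Of 20 carrier genes, whose products are cargo of the small TIM chaperones, 13 were measured by 16 clones, with 7 higher, 7 lower and a median of 0. Again 0 passed. A clone of the oxoglutarate carrier gene Slc25a11 was at -0.165 (SE 0.063), but its other clone was at 0.045 (SE 0.041). The adenine nucleotide carrier gene Slc25a5 was at -0.11 (SE 0.064). One gene of that list, Slc25a17, is known as a peroxisomal carrier and is not a mitochondrial cargo. Both its clones, at 0.07 and 0.035, parted and are counted among the higher ones.

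The cytosolic chaperones that deliver precursors were covered by 25 clones of 7 genes, with 13 higher, 7 lower, a median of 0.025 and 0 past the test. Both HuR siRNA arrays lay above both control arrays in 6 of the 25 and below them in 0, against 13.9% and 13.7% of all clones. Of the 25 clones, 2 had an unadjusted p under 0.05, as did 3.95% of all clones. An Hspa8 clone had -0.54 and -0.49 with HuR siRNA, against -0.7 and -0.65 with control siRNA, a difference of 0.16 (SE 0.046). An Hsp90aa1 clone had 1.61 and 1.55 with HuR siRNA, against 1.42 and 1.45 with control siRNA, a difference of 0.145 (SE 0.045), while the other 6 Hsp90aa1 clones differed by -0.055 to 0.085. The groups parted in both, and each had a limma adjusted p of 0.99. The 2 brightest Hspa8 clones differed by 0 and 0.025. Another Hspa8 clone was at 0.155 (SE 0.067).

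**Figure D4:**
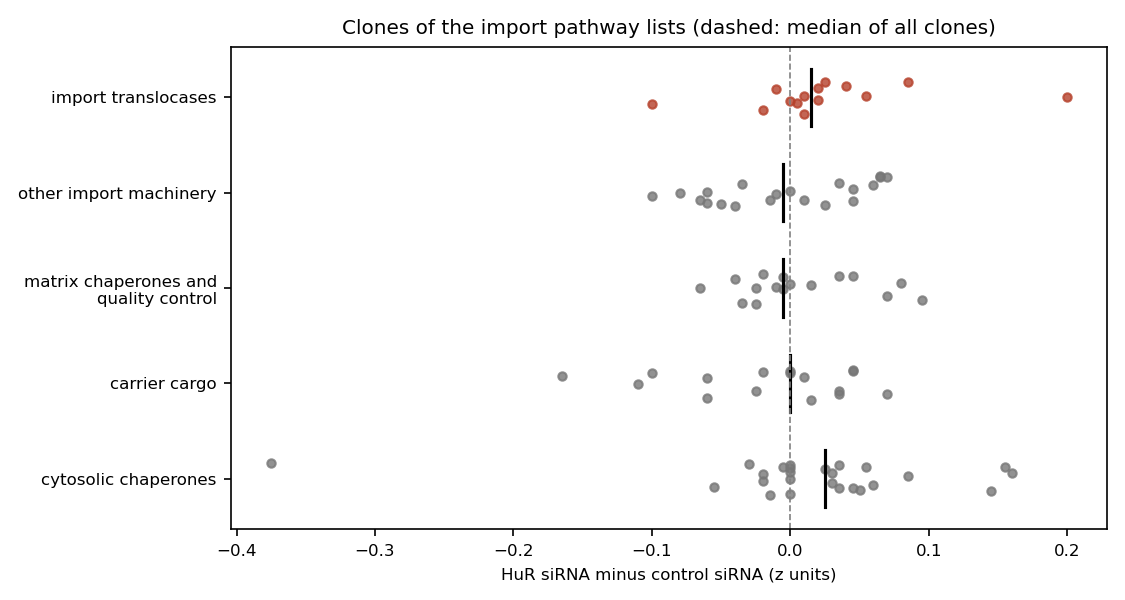
Difference between HuR siRNA and control siRNA (horizontal axis, z units) of each clone in the import translocase group and in 4 lists of related genes, with black bars at the list medians (0.015 for the translocases, -0.005, -0.005, 0 and 0.025 for the lists from top to bottom) and a dashed line at the median of all clones. The clone at the far right of the top row is Tomm20 1, whose difference chose the group, and the one at -0.375 is a dim Dnaja1 clone. Without the Tomm20 clones the translocase median was 0.01.

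Named clones whose pattern over the 4 arrays came close to that of the first Tomm20 clone belonged to genes of other functions. Closeness was the Euclidean distance between values centred on each clone's own mean, over 4712 named clones in the upper 50% by level. Among the nearest was a clone of the ribosomal protein gene Rpl6 (distance 0.043 z units), with 0.84 and 0.88 with HuR siRNA, against 0.65 and 0.72 with control siRNA. Clones of the fatty acid binding protein gene Fabp5 (0.05), Mrps36 (0.051) and Rack1 (0.051) were also among them. The other clones of Rpl6 differed by 0.08 and 0.165 and those of Rack1 by 0.09 and 0.195. With 4 arrays, nearness of this kind is a description of these values only.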

How the data were processed

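The values deposited by the authors are z-scores, each score having mean 0 and SD 1 within each of the 2 sections of 8448 spots on each array, as read from the values. Per the labels' protocols, 33P was incorporated by reverse transcription. How spots were scanned, corrected and transformed is not given in the sources used here. A second deposited table held equal scores in all 67584 cells. Spots of 1 clone were averaged, 55 spots without an accession were left out, and every clone stayed its own feature (16835). Clones were named through gene IDs, RefSeq accessions or symbols (GRCm38.p6 RefSeq table, names only), which gave 9498 clones (56.4%) a current symbol. The siRNA groups were set against each other in limma 3.58.1 (R 4.3.3, two-sided, no block, Benjamini-Hochberg over all clones, threshold 0.05). The fit was tested on simulated data with planted changes larger than any difference given here. That run does not show whether differences of the reported size would be found. The median half-width of a 95% interval was 0.144 z units, and the number of arrays limits it. An exact permutation test of 2 against 2 arrays cannot pass that threshold. All member clones are named, and of each related list the 3 clones of smallest unadjusted p, with further examples (Timm22, Timm8a1, Hspa9, Hspd1, other clones of named genes) chosen after their values were seen. Some clones picked this way are not reported here and stayed in all counts. The members and lists were chosen with earlier results of these data known.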

Additional observations from a re-analysis of the deposited data

How the results depend on the processing

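The count of clones past the threshold was 0 with limma under every alternative except quantile normalization within each section, where 1 clone outside the import lists passed (adjusted p = 0.03) and the cause was not tested. No import translocase clone and no clone of the related lists passed under any of them. With the replicate block 0 clones passed (smallest adjusted p = 0.684). Deviations of arrays that share a number had a correlation of 0.1, and 2 pairs do not show whether numbers pair the arrays. The median of the 14 clones ran from -0.0075 to 0.045 when each array was left out in turn, and was 0.01 without Tomm20 and 0.01 without clones of older symbols or disagreeing identifiers, both added after seeing the data. The latter check left out both Tomm70a clones and Timm8b BG070892. It kept the Timm9 and Timm13 clones, which are listed under names that have moved. The first Tomm20 clone, whose difference chose the group, stayed between 0.18 and 0.2475. These alternatives reuse the arrays on which it was chosen, so the range is no independent check of it. With grid medians removed, the sign turned for Tomm20 BG086772 (0.0325), Tomm70a BG088889 (-0.0325), Timm9 (-0.0125), Timm13 BG080141 (-0.0225) and Timm17a (-0.0525). With source plate medians removed it turned for Tomm20 BG086772 (0.0125), Timm9 (-0.0025) and Timm17a (-0.02). Leaving out each array gave 0.055 to 0.115 for Tomm20 BG088359, -0.18 to -0.02 for Tomm70a BG064591, -0.09 to 0.09 for Timm8b BG080049, 0.02 to 0.09 for Timm23, -0.08 to 0.04 for Tomm20 BG086772, -0.085 to 0.135 for Tomm70a BG088889, -0.015 to 0.055 for Tomm40, -0.005 to 0.085 for Timm8b BG070892, -0.055 to 0.075 for Timm9, -0.03 to 0.05 for Timm13 BG080141, -0.02 to 0.03 for Timm17a and -0.04 to 0.08 for Timm44. The lone array left in a group is assumed to vary like the other group.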
